A study of Mus musculus with 18 samples.

Results

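Cytochrome P450 genes were followed through mouse liver development. They were taken as the probe sets whose single gene symbol in the array annotation is Cyp followed by a family number, a subfamily letter and a gene number, which gave 93 probe sets of 70 genes among 45037 probe sets and 18193 genes. By family they comprised 3 genes of family 1, 35 of family 2, 5 of family 3, 11 of family 4, 6 of the sterol and bile acid families, 5 of the steroid hormone families, 4 of the vitamin A and D families, and Cyp20a1, whose substrate is not settled. Of these genes, 52 had 1 probe set, 13 had 2 and 5 had 3.

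Total RNA was hybridised to 18 Affymetrix mouse genome arrays, all from CD-1 mice, an outbred stock. Embryonic liver was taken on 6 days of gestation, from 10.5 days post conception (dpc) in daily steps to 14.5 dpc and then at 16.5 dpc, with 2 arrays a stage, each of a pool of at least 5 embryos. Extraneous tissue, including the vena cava behind the liver, was dissected away. Adult liver came from 10-week-old females, with 2 arrays labelled as baseline normal liver, and no adult male or newborn liver entered the comparisons. The rest of the embryo, after removal of the liver, gave 1 array at each of these stages except 13.5 and 16.5 dpc, 4 in all. The labels call the replicates biological without saying whether they came from separate litters or animals, so p-values measure only the spread between these samples.

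Cytochrome P450 enzymes are heme-containing monooxygenases. Most of families 1 to 3 oxidise drugs, environmental chemicals and steroids in the endoplasmic reticulum of hepatocytes, family 4 mainly hydroxylates fatty acids and eicosanoids, and the remaining families carry out fixed steps in the making or removal of bile acids, steroid hormones, retinoic acid and vitamin D. Microsomal members take electrons from P450 oxidoreductase and cytochrome b5, and mitochondrial members take them from ferredoxin. Several mouse members of families 2, 3 and 4 are expressed differently in adult males and females, so the adult values here are those of females.

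Replicate arrays correlated with a Pearson r of 0.948 at 10.5 dpc to 0.980 at 14.5 dpc, and 0.961 in the adult, over probe sets. The liver arrays had medians of 69.7 to 79.5 and 1216 to 1535 values below 0, whereas the rest-of-embryo arrays had medians of 91.9 to 106.8 and none below 0. Liver and rest of the embryo were therefore deposited in different forms, and every comparison between them crosses that difference. The 10 heart muscle markers, such as Myl7 and Nppa, summed to 14584 and 24025 on the liver arrays at 10.5 dpc and 3727 and 11335 at 12.5 dpc, against 504 to 1402 at the other embryonic stages. The 8 measured hepatocyte markers, Alb and Ttr among them, summed to between 8790 and 9421 at 10.5 dpc, between 33673 and 33880 at 16.5 dpc and between 43199 and 44403 in the adult.

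Where a gene had several probe sets, the brightest on average stood for it, and intensities under 24.8, the 20th percentile of all values, were raised to that floor. Intensities of different probe sets cannot be set against each other, so levels are compared only within a gene. A gene was placed by the first liver stage at which both arrays exceeded 77.9, the 50th percentile of all values. This gave 20 early embryonic genes with onset at 10.5 to 12.5 dpc, 6 late embryonic genes with onset at 13.5 to 16.5 dpc, 25 genes that passed the line in adult liver only, and 19 that passed it in no liver stage. The early class held 14 genes above the line from 10.5 dpc. Cyp11a1, Cyp2c68 and Cyp2s1 followed at 11.5 dpc and Cyp2c23, Cyp2c70 and Cyp4x1 at 12.5 dpc. In the late class Cyp2d10 passed at 13.5 dpc, Cyp2d26, Cyp2f2, Cyp3a11 and Cyp7a1 at 14.5 dpc, and Cyp2e1 at 16.5 dpc.

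The line is 1 intensity for all probe sets, so the classes are a description, and their split by family was not tested. Family 4, of the fatty acid hydroxylases, had 6 of its 11 genes in the early class, 3 in the adult only class and 2 below the line. Family 2 had 9 early, 4 late, 13 adult only and 9 below the line. Families 1 and 3 had 1 early gene each, Cyp1b1 and Cyp3a44. The adult only class comprised Cyp1a1, Cyp1a2, Cyp2a12, Cyp2b9, Cyp2b10, Cyp2b13, Cyp2c37, Cyp2c39, Cyp2c50, Cyp2c55, Cyp2d9, Cyp2d13, Cyp2g1, Cyp2j5, Cyp2r1, Cyp3a13, Cyp3a16, Cyp3a25, Cyp4a14, Cyp4f13, Cyp4f14, Cyp7b1, Cyp8b1, Cyp26a1 and Cyp27a1. Genes that passed the line in no liver stage were Cyp2b19, Cyp2c65, Cyp2d12, Cyp2d34, Cyp2d40, Cyp2j6, Cyp2j9, Cyp2j13, Cyp2u1, Cyp4f16, Cyp4f39, Cyp11b1, Cyp11b2, Cyp17a1, Cyp21a1, Cyp24a1, Cyp27b1, Cyp39a1 and Cyp46a1. Just inside the line lay Cyp1a1, with 83.5 and 78.6 in the adult, and just outside it lay Cyp39a1, with 180 and 70.8. Cyp2f2 was also near it, with 78.9 and 80.7 at 14.5 dpc but 69.0 and 63.7 at 16.5 dpc, and its brightest embryonic array, 118, was at 10.5 dpc, so its late class rests on values close to the line.

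**Figure D1:**
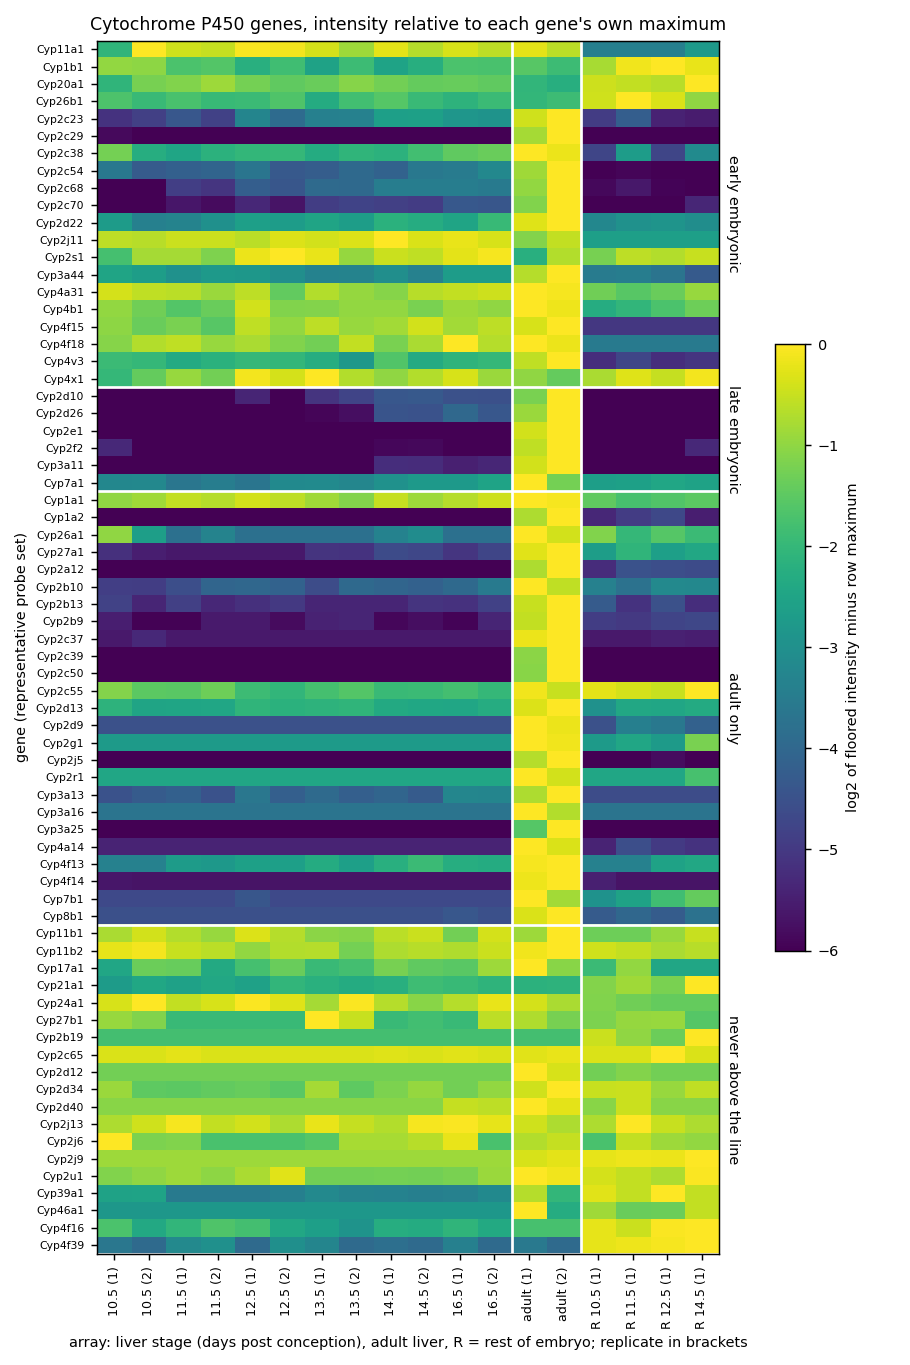
Intensity of the 70 P450 genes on each of the 18 arrays, as log2 of the floored intensity minus the gene's own maximum (colour, 0 is the brightest array), with genes in rows by onset class and arrays in columns. Most rows of the late embryonic and adult only classes are brightest in the 2 adult columns, while many early embryonic rows are as bright across the 12 embryonic liver columns.

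Onset by a fixed line and onset relative to the adult level gave different classes for 19 of the 70 genes when the line was replaced by 10% of the adult mean. Cyp2c29, Cyp2c70, Cyp2d10, Cyp2d26, Cyp2e1, Cyp2f2 and Cyp3a11 passed the line in embryonic liver but reached 10% only in the adult. At 16.5 dpc Cyp3a11 stood at 2.70% of its adult mean, Cyp2e1 at 1.40%, Cyp2d10 at 6.03%, Cyp2d26 at 7.36% and Cyp2c70 at 6.67%. In the other direction, Cyp2d13 and Cyp2c55 stood at 21.6% and 33.5% of their adult means at 16.5 dpc without passing the line before birth.

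The first question was which P450 genes changed while the liver was still embryonic. Between 10.5 and 16.5 dpc, 10 of the 52 genes tested rose and 1, Cyp26a1, fell, on a background of 10.4% higher and 6.98% lower among 14127 genes (limma, adjusted p under 0.05 and at least 1 log2). The genes that rose were Cyp2b10, Cyp2c23, Cyp2c68, Cyp2c70, Cyp2d10, Cyp2d26, Cyp3a11, Cyp3a13, Cyp4f13 and Cyp4x1, 6 of them of family 2, 2 of family 3 and 2 of family 4. Of the 52, 25 passed the filter on low values only through their adult arrays, and Cyp2b10, Cyp3a13, Cyp4f13 and Cyp26a1 were among these. The median difference of the 52 genes was 0.08 log2 against 0.05 for all genes tested. These are whole-tissue measurements, in which fewer cells of a type and less RNA per cell cannot be told apart, and the hepatocyte markers rose over the same stages, with 6 of 8 called higher and a median of 1.90 log2. Their part in the P450 differences was not tested.

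Cyp2d26, a family 2 enzyme expressed in liver, read below 0 on all 4 arrays at 10.5 and 11.5 dpc. At 12.5 dpc it gave 32.0 and 6.00, later 61.9 and 67.8 at 13.5 dpc, followed by 173 and 166 at 14.5 dpc, then by 240 and 182 at 16.5 dpc. The 16.5 dpc arrays were at least 8.42-fold above the floor at which both 10.5 dpc arrays lay (3.07 log2, SE 0.26, adjusted p = 8.3e-06). Because such arrays share 1 value at the floor, the SE and p of this gene and of others given as "at least" are too small. Cyp2d10, a gene of the same cluster, passed the line earlier. At 12.5 dpc it measured 87.6 and 33.1, then 106 and 133 a day later, 177 and 182 at 14.5 dpc, and 158 and 156 on the last embryonic day, at least 6.34-fold above 10.5 dpc (2.67 log2, SE 0.43, adjusted p = 0.00062). From 13.5 dpc on, both genes were above all of their earlier arrays.

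The largest early rises in the Cyp2c group belonged to Cyp2c68 and Cyp2c70. Cyp2c68 was detected from the start, with 76.6 and 82.8 at 10.5 dpc, and climbed through 182 and 160, 292 and 255, and 356 and 352 to 490 and 489 at 14.5 dpc and 490 and 467 at 16.5 dpc. No stage overlapped the one before it up to 14.5 dpc, and the rise to 16.5 dpc was 6.01-fold (2.59 log2, SE 0.24, adjusted p = 1.4e-05). Cyp2c70, which in mice hydroxylates bile acids to muricholic acids, went from 37.8 and 28.0 at 10.5 dpc to 83.8 and 74.3 at 11.5 dpc and 206 and 201 at 16.5 dpc, a 6.25-fold difference (2.65 log2, SE 0.30, adjusted p = 5.7e-05). Cyp2c23, an arachidonic acid epoxygenase, measured 33.6 and 39.8 at 10.5 dpc, then 190 and 193 at 14.5 dpc, with 162 and 154 at 16.5 dpc, a 4.32-fold difference (2.11 log2, SE 0.23, adjusted p = 4.7e-05).

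Cyp3a11, the principal drug- and steroid-oxidising enzyme of family 3 in mouse liver, showed a step rather than a slope. Its 8 arrays from 10.5 to 13.5 dpc lay between 18.3 and 47.5, and its 4 arrays at 14.5 and 16.5 dpc lay between 144 and 173, with no overlap. The difference between 16.5 and 10.5 dpc was 2.49 log2 (SE 0.24, adjusted p = 1.8e-05), with 1 of the 2 arrays at 10.5 dpc at the floor, which shrinks it. Between 16.5 and 13.5 dpc it was the only P450 gene called, higher by 1.67 log2 (SE 0.24, adjusted p = 0.036), on a background of 0.0425% higher and 0.0708% lower. No P450 gene was called lower by limma there, and 7 of 52 had an unadjusted p under 0.05, all of them higher. The call rested on the setting: with the replicate block the adjusted p of Cyp3a11 was 0.071, leaving out an array at 10.5, 11.5 or 14.5 dpc gave 0.052 to 0.067, and leaving out one at 13.5 or 16.5 dpc gave 0.14 to 0.31. Over all alternatives it ranged from 0.0067 to 0.31. Cyp3a13, a second family 3 gene, measured 26.9 and 31.0 at 10.5 dpc and 63.8 and 62.0 at 16.5 dpc, higher by 1.12 log2 (SE 0.27, adjusted p = 0.0074) but below the line.

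Smaller rises stayed near the line. Cyp2b10, the classical phenobarbital-inducible gene, measured 29.0 and 28.5 at 10.5 dpc and 55.6 and 72.4 at 16.5 dpc, a difference of 1.14 log2 (SE 0.27, adjusted p = 0.0075). Both other probe sets of Cyp2b10 showed no rise, with differences of -0.10 and 0 log2, and the call was lost under 5 of 24 alternatives, among them the mean over probe sets (0.35 log2, adjusted p = 0.11). Cyp4f13 went from 9.59 and 21.1 to 53.8 and 52.2, at least 2.14-fold (1.09 log2, SE 0.17, adjusted p = 0.00041). Cyp4x1 peaked in the middle, with 28.3 and 42.5 at 10.5 dpc, then 106 and 86.8 at 12.5 dpc, later 114 and 70.6 at 13.5 dpc, ending with 88.3 and 60.6 at 16.5 dpc (1.08 log2, SE 0.31, adjusted p = 0.018). Its adult arrays, 56.6 and 42.5, lay below the arrays at 12.5 and 13.5 dpc. The call of Cyp4x1 between 10.5 and 16.5 dpc was kept under 19 alternatives and lost under 6. Its call over the 6 stages was kept under 20 and lost under 5.

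**Figure D2:**
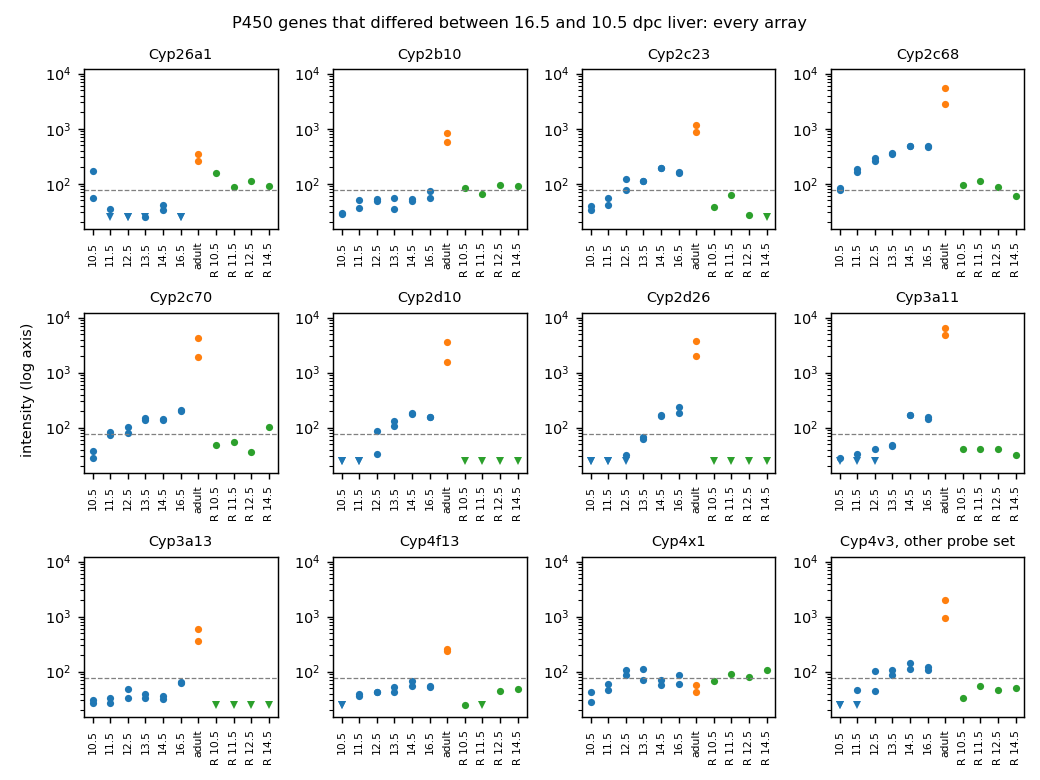
Array intensity (log axis) on every array for the 11 genes that differed between 16.5 and 10.5 dpc and for a second probe set of Cyp4v3, by liver stage in dpc (blue), adult liver (orange) and rest of the embryo at the stage named after R (green). Triangles are values at or under the floor and the dashed line is at 77.9. Cyp2c68 climbs from stage to stage, Cyp3a11 steps up at 14.5 dpc, and Cyp26a1 is high at 10.5 dpc and in the adult.

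Cyp26a1, which clears retinoic acid, was the gene that fell. It measured 171 and 55.6 at 10.5 dpc and between 0.747 and 40.3 on the 10 later embryonic arrays, then 343 and 257 in the adult. The fall to 16.5 dpc was at least 3.93-fold (1.97 log2, SE 0.41, adjusted p = 0.0031), and both 10.5 dpc arrays were above every later embryonic array. Its size rests on either array at 10.5 dpc, being -1.16 log2 without replicate 1 and -2.78 log2 without replicate 2. Cyp1b1, which oxidises steroids and polycyclic hydrocarbons and is expressed in mesenchyme and endothelium, measured 168 and 164 at 10.5 dpc, then 56.3 and 89.7 at 13.5 dpc, with 102 and 101 at 16.5 dpc. It did not pass between 10.5 and 16.5 dpc, where it was lower by 0.71 log2 (SE 0.23, adjusted p = 0.033), but changed over the 6 stages with a range of 1.39 log2 (F test, adjusted p = 0.0075). The 11 mesenchyme and stellate cell markers fell over the same interval, from sums of 11594 and 14747 at 10.5 dpc to 4851 and 5078 at 16.5 dpc, as did the heart markers, and their part in both results was not tested.

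Over all 6 embryonic stages 10 of the 52 P450 genes changed, against 19.6% of all genes tested. They were Cyp1b1, Cyp26a1, Cyp2c23, Cyp2c68, Cyp2c70, Cyp2d10, Cyp2d26, Cyp3a11, Cyp4f13 and Cyp4x1. With the 10.5 and 12.5 dpc arrays left out, because of the heart markers on them, the count was 5, and from 11.5 to 16.5 dpc 7 genes rose.

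Most of the early embryonic class was already present at 10.5 dpc and did not pass the test for a change up to 16.5 dpc. Of its 20 genes 4 rose in that interval, in which 10.4% of all genes did. Cyp4f15, a fatty acid hydroxylase, measured 275 at the lowest, 438 at the median and 603 at the highest of the 12 embryonic liver arrays. Cyp4f18, known for its activity on leukotriene B4 in blood cells, ranged from 118 through 168 to 286. Cyp4a31 ranged from 117 through 204 to 243 and Cyp4b1 from 64.0 through 94.1 to 147. The arrays at 10.5 and 16.5 dpc overlapped for Cyp4a31 and Cyp4b1. They did not overlap for Cyp4f15 and Cyp4f18, which differed by 0.47 and 0.56 log2 without a call. These values are of the representative probe sets. Second probe sets of Cyp4f18 and Cyp4a31 did not exceed 46.8 and 10.3 on any embryonic liver array.

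In family 2, Cyp2c38 ranged over the 12 embryonic arrays from 119 through 160 to 277, Cyp2c54 from 101 through 127 to 220, and Cyp2j11 from 96.7 through 116 to 152. Cyp2d22 ranged from 85.2 through 143 to 229 and Cyp2c29 from 26.5 through 67.9 to 104, with both of its arrays above the line only at 10.5 dpc among the embryonic stages. Cyp2s1, an extrahepatic retinoid- and eicosanoid-oxidising enzyme, ranged from 70.2 through 166 to 239. Cyp3a44 ranged from 142 through 197 to 260 and Cyp20a1 from 157 through 265 to 363. None of these 8 genes was called between 10.5 and 16.5 dpc.

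Probe sets of 1 gene did not always give 1 answer. Of the 18 genes with several probe sets, 10 had probe sets in different classes, namely Cyp1b1, Cyp2d22, Cyp4a31, Cyp4f18, Cyp4v3, Cyp7a1, Cyp7b1, Cyp11a1, Cyp20a1 and Cyp27a1. Cyp4v3, a fatty acid hydroxylase, measured 246 and 231 at 10.5 dpc and 217 and 228 at 16.5 dpc by its representative probe set. A second probe set of Cyp4v3 gave 17.3 and 6.32, then 107 and 121, a rise of at least 4.58-fold (2.19 log2, SE 0.43, adjusted p = 0.0025). Cyp2d22 behaved alike, with 136 and 85.2 at 10.5 dpc and 159 and 229 at 16.5 dpc by its representative, and 5.55 and 10.1 against 117 and 109 by the second, a rise of at least 4.54-fold (2.18 log2, SE 0.32, adjusted p = 0.00035). For Cyp4v3 and Cyp2d22 the statement of early embryonic onset therefore holds for 1 of 2 probe sets. The same is true of Cyp4a31 and Cyp4f18, whose second probe sets never passed the line. For Cyp1b1 and Cyp11a1 it holds for the representative alone, as their other probe sets never passed the line. The remaining disagreements paired a representative above the line with dimmer probe sets, some of which never passed it.

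Start-site sequences were compared for the genes whose onset differed. RefSeq promoters of build GRCm38.p6, 250 bases before to 50 bases after the start, were found for 51 of the 70 genes, 58 promoters in all. Both strands were searched for CAAAGTCCA (an HNF4 site), TGTTTAC (a FOXA site), GTTAAT (part of an HNF1 site), TTGCNNAA (a C/EBP site) and TATAAA. HNF4, FOXA, HNF1 and C/EBP proteins are hepatocyte transcription factors. The CAAAGTCCA letters stood in 6 of the 58 P450 promoters, 10.3%, against 0.475% of 32851 promoters of all genes. Because P450 genes of a cluster are copies of each other, their promoters are not independent. The 4 windows outside the Cyp3a genes are shown because they join genes of different onset, with the matching letters in capitals.
Cyp2c65 (chr19:39060855-39060934, plus strand): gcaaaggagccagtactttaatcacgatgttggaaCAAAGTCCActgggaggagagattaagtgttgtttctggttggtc
Cyp2c68 (chr19:39741134-39741213, minus strand): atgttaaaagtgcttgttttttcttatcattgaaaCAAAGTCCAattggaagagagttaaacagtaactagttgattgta
Cyp2c70 (chr19:40187306-40187385, minus strand): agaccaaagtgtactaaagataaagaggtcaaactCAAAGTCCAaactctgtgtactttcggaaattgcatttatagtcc
Cyp8b1 (chr9:121916328-121916407, minus strand): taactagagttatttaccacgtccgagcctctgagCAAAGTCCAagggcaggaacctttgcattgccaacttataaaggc
The letters began 116, 77, 64 and 67 bases before the start. Cyp2c68 and Cyp2c70 rose from 10.5 dpc, Cyp8b1 passed the line only in the adult, and Cyp2c65 stayed between 5.48 and 27.3 on all 14 liver arrays.

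The other matches were in Cyp3a11 and Cyp3a16, which lie in 1 gene cluster. The 250 bases before their starts are shown, with those of Cyp2d26, which rose between 10.5 and 16.5 dpc, and every match to the 5 motifs is in capitals.
Cyp3a11 (chr5:145879855-145880104, minus strand): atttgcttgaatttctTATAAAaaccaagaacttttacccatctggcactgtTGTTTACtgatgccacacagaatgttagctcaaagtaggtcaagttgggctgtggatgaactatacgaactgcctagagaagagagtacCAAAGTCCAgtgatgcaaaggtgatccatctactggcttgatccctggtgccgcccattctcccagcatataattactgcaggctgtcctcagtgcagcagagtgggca
Cyp3a16 (chr5:145469724-145469973, minus strand): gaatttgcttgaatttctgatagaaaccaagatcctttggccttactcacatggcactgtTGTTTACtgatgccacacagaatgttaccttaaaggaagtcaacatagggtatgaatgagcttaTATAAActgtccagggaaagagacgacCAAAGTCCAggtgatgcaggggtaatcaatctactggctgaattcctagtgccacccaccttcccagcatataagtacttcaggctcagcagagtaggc
Cyp2d26 (chr15:82794246-82794495, minus strand): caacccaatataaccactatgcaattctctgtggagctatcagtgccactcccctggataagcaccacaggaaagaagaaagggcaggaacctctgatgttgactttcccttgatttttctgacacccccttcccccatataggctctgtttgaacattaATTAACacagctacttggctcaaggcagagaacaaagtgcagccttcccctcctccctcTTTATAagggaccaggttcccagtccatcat
Cyp3a11 and Cyp3a16 both carried TGTTTAC, 198 and 190 bases before the start, and CAAAGTCCA, 109 and 99 bases before it. Yet Cyp3a11 stepped up at 14.5 dpc, while all 12 embryonic liver arrays of Cyp3a16 lay between -14.3 and 15.2. Cyp2d26 carried TATAAA 31 bases and GTTAAT 90 bases before the start, both on the opposite strand, and no CAAAGTCCA. TATAAA was found in 36.2% of P450 promoters and 13.6% of all promoters, TGTTTAC in 12.1% and 3.65%, TTGCNNAA in 24.1% and 10.8%, and GTTAAT in 5.17% and 7.10%. A match describes letters and not binding.

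Between 16.5 dpc and the adult, 39 of the 52 tested genes were higher, 1 was lower and 12 were not called, on a background of 10.3% higher and 22.8% lower. Of the 52, however, 25 exceeded the line on 2 arrays only because of the adult arrays, a choice that favours a difference, and 24 of these were higher. Among the 27 genes that also passed on embryonic arrays alone, 15 were higher, 1 was lower and 11 were not called. Among all 13330 genes that passed on embryonic arrays alone, 7.01% were higher and 24.2% lower, with a median of -0.30 log2 against 1.76 for the 27 P450 genes. Over the same interval the summed red cell markers went from 21777 and 22115 at 16.5 dpc to 513 and 596 in the adult, and the hepatocyte markers rose less, with a median of 0.67 log2 and 2 of 8 called. The part of cell composition in the P450 differences was not tested.

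Family 2 contributed 24 of the 39 genes, with 26 tested. Its 13 adult only genes, among them Cyp2c50, Cyp2c39 and Cyp2j5, passed the filter on low values only through their adult arrays. That choice favours a difference. Cyp2c50 read below 0 on every embryonic liver array and 2506 and 5244 in the adult, at least 146-fold above 16.5 dpc (7.19 log2, SE 0.27, adjusted p = 4.2e-09). Cyp2c39 likewise read below 0 in all embryonic liver and 1506 and 3122 in the adult, at least 87.3-fold (6.45 log2, SE 0.27, adjusted p = 9.5e-09). Cyp2j5, an arachidonic acid epoxygenase, read 1414 and 2238 in the adult and no more than 24 before, at least 71.7-fold (6.16 log2, SE 0.20, adjusted p = 1.6e-09). In these 3 genes the embryonic arrays gave only a bound.

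Cyp2e1, which oxidises ethanol and small solvents, had a measured embryonic level. Its embryonic arrays ranged from 50 through 65.9 to 93.2, and its adult arrays were 5294 and 6985, a 70.8-fold difference from 16.5 dpc (6.15 log2, SE 0.16, adjusted p = 5.3e-10). Cyp2f2, which oxidises naphthalene, measured 69.0 and 63.7 at 16.5 dpc and 3177 and 4698 in the adult, higher by 5.87 log2 (SE 0.39, adjusted p = 3.7e-07). Cyp2c29, in spite of its early class, went from 57.6 and 83.5 to 3421 and 5996, higher by 6.03 log2 (SE 0.45, adjusted p = 8.8e-07).

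The genes already rising before birth were also called higher in the adult, with the exception of Cyp4x1, against 10.3% of all genes tested. Of these, Cyp2b10, Cyp3a13 and Cyp4f13 passed the filter on low values only through their adult arrays, a choice that favours a difference. Cyp2c68 reached 2771 and 5405, 8.08-fold above 16.5 dpc (3.01 log2, SE 0.24, adjusted p = 1.4e-06), and Cyp2c70 reached 1917 and 4188, 13.9-fold above it (3.80 log2, SE 0.30, adjusted p = 1.4e-06). Cyp2d26 reached 1993 and 3736 and Cyp2d10 reached 1588 and 3637, higher by 3.71 and 3.93 log2. All adult arrays of these 4 genes were above all embryonic arrays.

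In family 1, Cyp1a2, which oxidises aromatic amines and caffeine, read between -7.48 and 9.76 in embryonic liver and 1270 and 2125 in the adult, at least 66.2-fold (6.05 log2, SE 0.21, adjusted p = 2.7e-09). Its neighbour Cyp1a1 was higher by 0.52 log2 (SE 0.18, adjusted p = 0.030) and so was not called. All 5 members of family 3 were higher, but Cyp3a13, Cyp3a16 and Cyp3a25 passed the filter on low values only through their adult arrays. Cyp3a25 went from below 0 to 1252 and 3758, at least 87.4-fold (6.45 log2, SE 0.37, adjusted p = 1.2e-07), Cyp3a11 went to 4760 and 6360, 36.7-fold above 16.5 dpc (5.20 log2, SE 0.24, adjusted p = 2.4e-08), and Cyp3a16 went to 321 and 198, at least 10.2-fold (3.34 log2, SE 0.20, adjusted p = 1.7e-07).

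In family 4 only 4 of 9 tested genes were higher, and of these Cyp4a14, Cyp4f13 and Cyp4f14 passed the filter only through their adult arrays. Cyp4f14 read no more than 25.8 in the embryo and 1156 and 1279 in the adult, at least 49.0-fold (5.61 log2, SE 0.14, adjusted p = 2.8e-10). Cyp4a14, a fatty acid hydroxylase under PPARα, read no more than 20.7 and then 1051 and 832, at least 37.7-fold (5.24 log2, SE 0.15, adjusted p = 8.5e-10). Cyp4f13 was higher by 2.23 log2 and Cyp4v3 by 1.76 log2. Cyp4f15, Cyp4f18, Cyp4a31 and Cyp4b1 differed by 0.53, 0.24, 0.46 and 0.86 log2 and were not called, with adult values of 624 and 806, 286 and 252, 318 and 302, and 195 and 174.

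Cyp2s1 was the gene called lower in the adult, from 201 and 225 at 16.5 dpc to 51.7 and 147 (-1.28 log2, SE 0.45, adjusted p = 0.033). The call rested on adult replicate 1, without which the difference was -0.53 log2 (adjusted p = 0.30), and it was also lost without either array at 16.5 dpc (adjusted p = 0.082 and 0.12). Other genes without a call included Cyp20a1 (-0.71 log2), Cyp2j11 (-0.56 log2), Cyp1b1 (-0.02 log2) and Cyp11a1 (0.04 log2). With either adult array left out, 17 genes were higher, since only 29 of the 52 could then be tested.

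**Figure D3:**
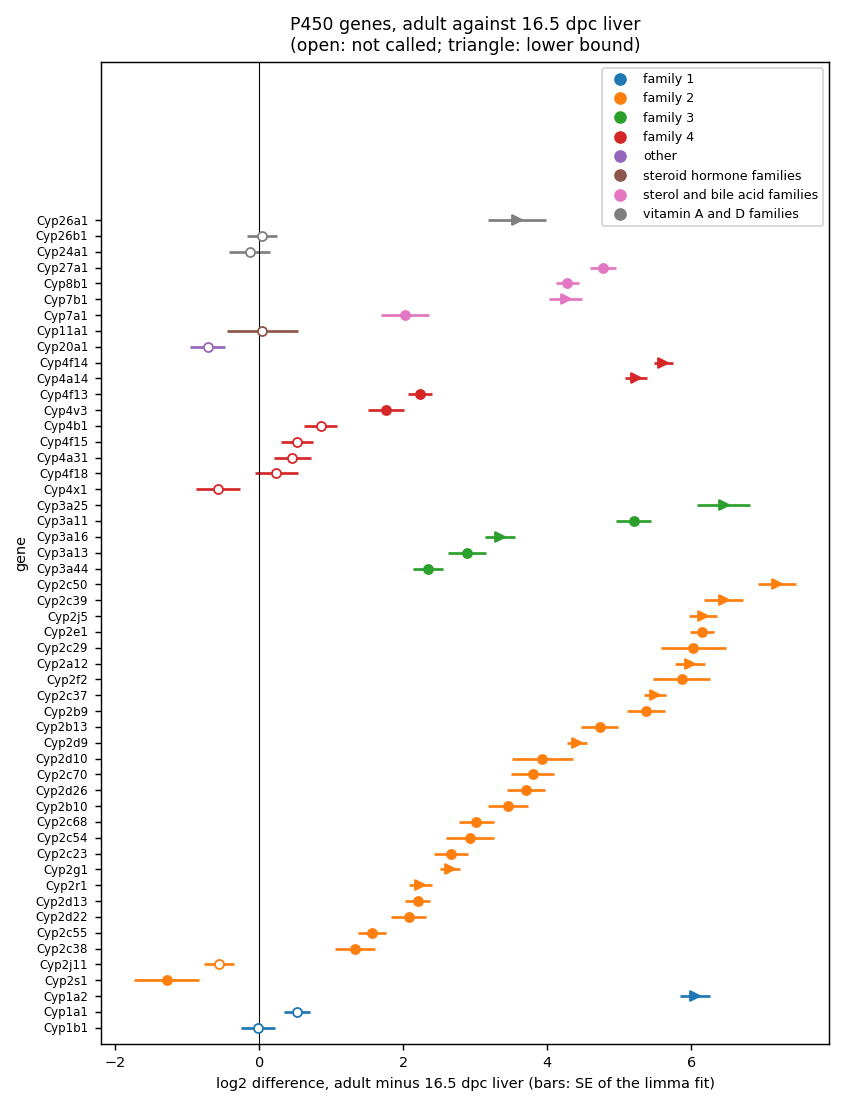
The log2 difference between adult and 16.5 dpc liver for the 52 P450 genes tested, by family, with bars for the SE of the limma fit. Open symbols are genes that were not called and triangles are lower bounds. All 5 family 3 genes lie above 2, whereas 5 of the 9 family 4 genes are open symbols below 1. Of these 2 families, Cyp3a13, Cyp3a16, Cyp3a25, Cyp4a14, Cyp4f13 and Cyp4f14 passed the filter on low values only through their adult arrays.

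Neighbouring genes were set beside the 39 of 52 that were higher in the adult overall. Genes under 1000000 bases apart in the RefSeq order formed 9 groups, 8 of which held tested genes, and no test of the groups was run. All tested genes were higher in the Cyp2c group (9 of 9), the Cyp2d group (5 of 5) and the Cyp3a group (4 of 4), but 4, 2 and 2 of these had passed the filter only through their adult arrays. The group of Cyp2a, Cyp2b, Cyp2f, Cyp2g and Cyp2s genes had 6 of 7 higher, with 5 that passed only through the adult arrays. The Cyp4f group had 2 of 3 higher, the Cyp2j group 1 of 2, the Cyp4x1, Cyp4a14, Cyp4a31 and Cyp4b1 group 1 of 4, and the Cyp1a2, Cyp1a1 and Cyp11a1 group 1 of 3. Every higher gene of these last groups had passed the filter only through its adult arrays. Near-identical copies within the Cyp2c, Cyp2d and Cyp3a groups may share probe matches, and how much was not tested.

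All 4 sterol and bile acid enzymes that could be tested were higher in the adult than at 16.5 dpc, against 10.3% of all genes tested. Of these, Cyp27a1, Cyp7b1 and Cyp8b1 passed the filter on low values only through their adult arrays, a choice that favours a difference. Cyp27a1, the mitochondrial sterol 27-hydroxylase, ranged from 14.5 through 34.2 to 48.8 in embryonic liver and measured 1002 and 1217 in the adult, 27.3-fold above 16.5 dpc (4.77 log2, SE 0.18, adjusted p = 4.2e-09). Cyp8b1, the sterol 12-hydroxylase that sets the cholic acid share, ranged from 6.10 to 28.1 and then measured 454 and 579 (4.28 log2, SE 0.16, adjusted p = 4.1e-09, 1 of 2 arrays at 16.5 dpc at the floor). Cyp7b1, the oxysterol 7-hydroxylase, read no more than 29.8 and then 630 and 356, at least 19.1-fold (4.25 log2, SE 0.23, adjusted p = 7.7e-08).

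Cyp7a1, the rate-limiting enzyme of bile acid synthesis from cholesterol, was the sterol gene with a late embryonic onset. It measured 66.8 and 68.4 at 10.5 dpc, then 80.7 and 91.8 at 14.5 dpc, with 91.1 and 110 at 16.5 dpc, a difference of 0.56 log2 from 10.5 dpc that was not called (SE 0.33, adjusted p = 0.23). In the adult it measured 626 and 264, higher by 2.03 log2 (SE 0.33, adjusted p = 0.00036). Its second probe set passed the line only in the adult, with 316 and 106 after no more than 24.4 in the embryo. Cyp39a1 and Cyp46a1, which hydroxylate oxysterols and brain cholesterol, passed the line on 1 of 2 adult arrays, with 180 and 70.8 and with 176 and 36.

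The steroid hormone enzymes were mostly absent from liver by the line. Cyp11a1, which cleaves the cholesterol side chain, was the exception, with 62.3 and 262 at 10.5 dpc and 142 to 253 on the 10 later embryonic arrays. It was 220 and 171 in the adult, and neither the embryonic nor the adult difference was called. Both other probe sets of Cyp11a1 stayed at or below 58.8 on all liver arrays. The 5 measured markers of steroid-making cells, such as Star and Nr5a1, summed to 352 to 761 on liver arrays and 411 to 533 in the rest of the embryo. At the matched stages 1 of the 5 was called higher in liver and 3 lower, against 14% and 51.2% of all genes. Hsd3b1 read 115 to 421 on liver arrays and 19.4 to 39.1 in the rest, whereas Star read 51.3 to 98.5 and 145 to 175. Cyp17a1 reached 135.2 and 65.0 in the adult after 21.1 to 73.9 in the embryo, Cyp21a1 lay between 44.2 and 80.3, and Cyp11b1 and Cyp11b2 did not exceed 61.9 on any liver array.

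Among the vitamin enzymes, Cyp26a1 was higher in the adult by at least 12-fold over 16.5 dpc (3.58 log2, SE 0.41, adjusted p = 2.2e-05). Cyp26b1, also a retinoic acid hydroxylase, was level, with 85.0 at the lowest, 112 at the median and 140 at the highest of the embryonic arrays and 102 and 112 in the adult (0.04 log2, SE 0.21, adjusted p = 0.89). Cyp24a1, which breaks down vitamin D, lay between 40.2 and 83.7 in embryonic liver and was 64.1 and 49.6 in the adult. Cyp27b1, which activates vitamin D, scattered between -34.1 and 94.8 without a stage above the line.

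**Figure D4:**
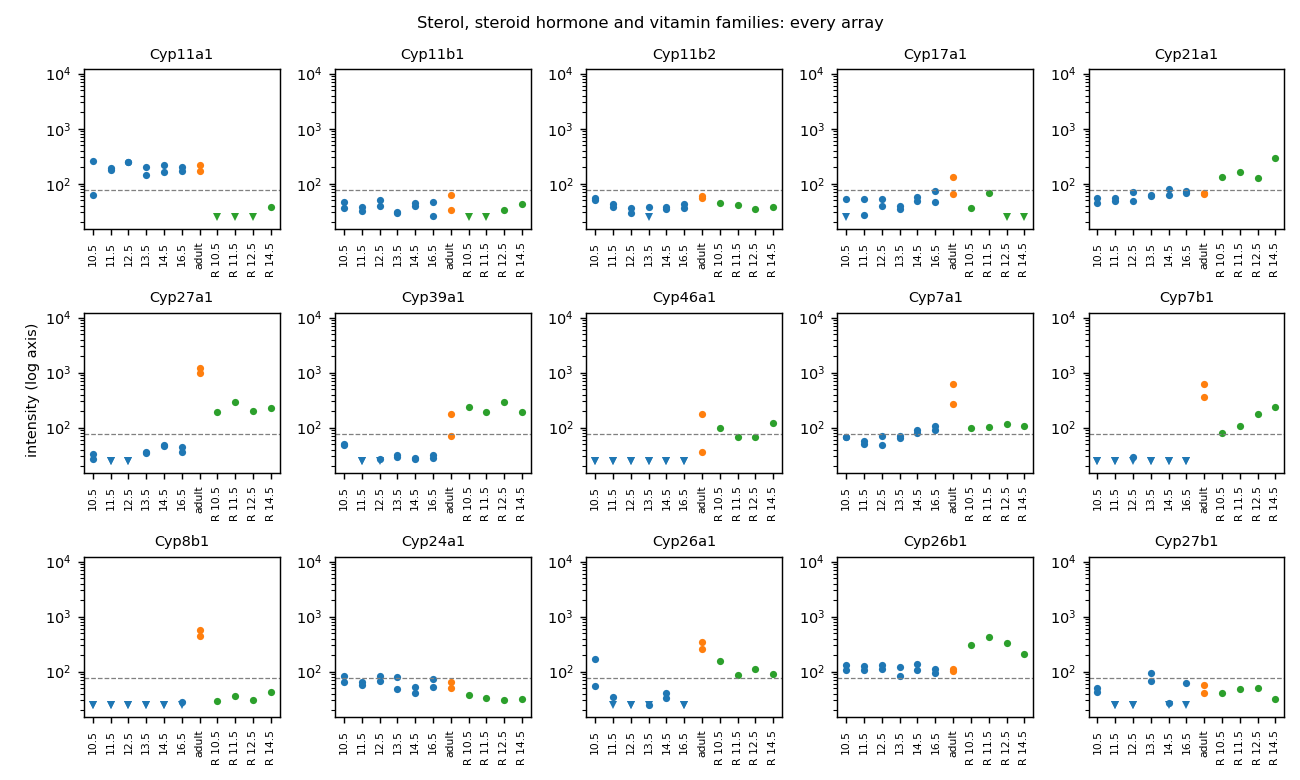
Intensity (log axis) on every array for the 15 genes of the steroid hormone, sterol and vitamin families, by liver stage in dpc (blue), adult liver (orange) and rest of the embryo (green, stage after R). Triangles are values at or under the floor and the dashed line is at 77.9. Cyp27a1, Cyp7b1 and Cyp8b1 are low in all embryonic liver and high in the adult, and Cyp27a1 and Cyp7b1 are above their embryonic liver arrays in the rest of the embryo.

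The last question was which P450 genes the embryonic liver shared with the rest of the embryo. At the 4 matched stages 9 of 37 tested genes were higher in liver and 12 lower, on a background of 14% higher and 51.2% lower with a median over all genes of -1.04 log2. The differences are therefore given beside that shift, and the part of the different deposited forms in it was not tested. After centring each array on its median the split became 14 higher and 9 lower, with 17.5% and 35.9% of all genes and a median of -0.62 log2, and after quantile normalization it was 14 higher and 8 lower, with 20.2% of all genes on either side and a median of -0.11 log2. Of the 12 genes lower in liver, 10 passed the filter on low values only through the rest-of-embryo arrays, and of the 9 higher in liver, 8 passed only through the liver arrays, a choice that favours a difference. Among the 10 genes that passed in both tissues, Cyp2c68 was higher in liver, Cyp1b1 and Cyp26b1 were lower, and 7 were not called.

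The genes higher in liver were led by family 4. Cyp4f15 read 275 at the lowest, 405 at the median and 603 at the highest of the 8 matched liver arrays and between 5.53 and 16.0 in the 4 rest-of-embryo samples, at least 16.3-fold (4.03 log2, SE 0.17, adjusted p = 8.4e-09). Cyp4v3 ranged from 182 through 228 to 296 in liver and from 5.09 to 34.4 in the rest (3.01 log2, SE 0.17, adjusted p = 4.3e-08), but its second probe set was not called (0.17 log2, adjusted p = 0.64). Cyp4f18 ranged from 124 through 159 to 192 in liver and from 2.90 to 11.6 in the rest, at least 6.19-fold (2.63 log2, SE 0.15, adjusted p = 5.0e-08). In all 3 the tissues did not overlap by the representative probe set, and centring gave 4.17, 3.23 and 2.77 log2. By the second probe sets of Cyp4v3 and Cyp4f18 the tissues overlapped. That of Cyp4f18 read 16.0 to 46.8 in matched liver and 7.15 to 43.0 in the rest.

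Cyp11a1 was higher in liver by 2.73 log2 (SE 0.33, adjusted p = 1.5e-05), with 62.3 to 262 against 4.35 to 38.3 by its representative probe set. By both other probe sets of Cyp11a1 the tissues overlapped. They read 15.7 to 30.0 and 1.39 to 58.8 in matched liver, against 12.7 to 43.3 and 18.3 to 29.5 in the rest. Among family 2, Cyp2c54 exceeded the rest of the embryo by 2.20 log2 (SE 0.19, adjusted p = 1.1e-06), Cyp2j11 by at least 4.51-fold (2.17 log2, SE 0.14, adjusted p = 8.4e-08) and Cyp2c38 by 1.81 log2 (SE 0.38, adjusted p = 0.0010). Cyp2c68 and Cyp2c23 were higher by 1.27 and 1.09 log2, with overlap between the tissues at the early stages. The call of Cyp2c23 (adjusted p = 0.044) was lost under 11 of 23 alternatives, with adjusted p up to 0.29 without the 14.5 dpc arrays. All 9 genes higher in liver as deposited were also called higher after centring. Because centring multiplies each array by 1 factor, a call kept after it, here or below, still crosses the difference in deposited forms.

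The genes lower in liver included Cyp27a1 and Cyp7b1, both of which were higher in adult liver than at 16.5 dpc. Cyp27a1 measured 191, 287, 198 and 230 in the rest of the embryo and no more than 48.8 in embryonic liver (-2.87 log2, SE 0.19, adjusted p = 1.1e-07), and Cyp7b1 measured 81.7, 107.7, 176 and 238 against no more than 29.8 (-2.45 log2, SE 0.22, adjusted p = 1.2e-06). Cyp39a1 was also lower in liver (-2.88 log2, SE 0.18, adjusted p = 7.3e-08), with 196 to 287 in the rest and 13.3 to 50.1 in liver. Cyp46a1, an enzyme of neurons, read 68.4 to 120 in the rest and at or under the floor on all 8 liver arrays, at least 3.47-fold lower. After centring, these 4 genes differed by -2.54, -2.17, -2.54 and -1.54 log2 and kept their calls.

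Cyp4f39, which hydroxylates the very long fatty acids of skin lipids, had the largest difference among the genes lower in liver, with 322 to 376 in the rest and 16.3 to 47.3 in liver (-3.43 log2, SE 0.20, adjusted p = 5.2e-08). Cyp4f16, of the same gene group, was also lower (-1.88 log2, SE 0.20, adjusted p = 5.5e-06), in contrast to Cyp4f15. Cyp2a12 was at least 3.07-fold lower, and Cyp2c55 was lower too (-1.37 log2, SE 0.17, adjusted p = 1.5e-05). After centring or quantile normalization Cyp2a12 and Cyp2b10 no longer passed the filter on low values and were not tested. The splits given above under those settings leave both out. Cyp21a1 measured 291 in the rest of the embryo at 14.5 dpc and 126 to 161 at the earlier stages, and was lower in liver (-1.55 log2, SE 0.18, adjusted p = 8.8e-06).

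Both retinoic acid hydroxylases were lower in liver as deposited. Cyp26b1 measured 307, 418, 330 and 210 in the rest of the embryo and between 108 and 140 in matched liver (-1.35 log2, SE 0.17, adjusted p = 2.1e-05), and Cyp26a1 measured 85.5 to 157 in the rest and 17.2 to 171 in liver (-1.43 log2, SE 0.31, adjusted p = 0.0011), with overlap at 10.5 dpc. Cyp1b1 measured 192 to 330 in the rest and 57.9 to 168 in liver (-1.49 log2, SE 0.27, adjusted p = 0.00034). After centring, Cyp26a1 and Cyp1b1 both differed by -1.09 log2 and kept their calls, whereas Cyp26b1 and Cyp2c55 lost theirs. After quantile normalization Cyp1b1 also lost its call (-0.81 log2, adjusted p = 0.020), while Cyp26a1 kept it. Mesenchyme markers summed to 27397 to 60664 in the rest of the embryo, and their part was not tested.

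**Figure D5:**
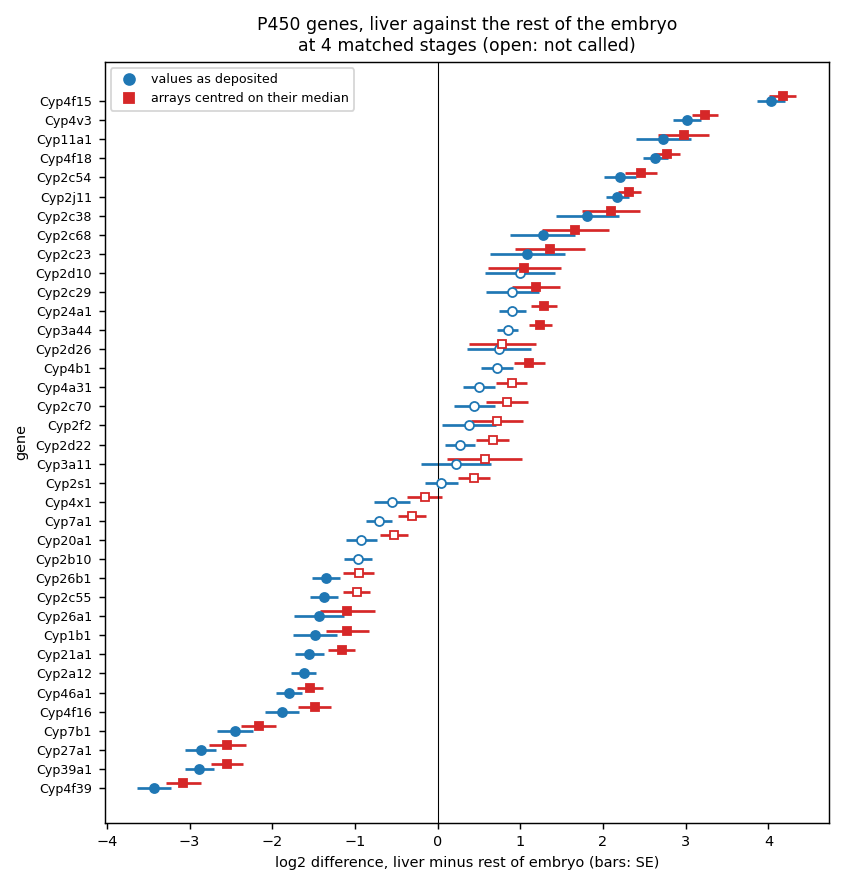
The log2 difference between liver and rest of the embryo at the 4 matched stages for the 37 P450 genes tested, from the values as deposited (blue circles) and with arrays centred on their medians (red squares, where the gene could be tested), with bars for the SE. Filled symbols are called. Centring moves most genes to the right, and Cyp4f15 and Cyp4f39 remain at the ends.

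The genes that serve P450 enzymes were taken from lists of electron donors, heme supply and regulators. Among 6 electron transfer genes measured, Cyb5r3 rose between 10.5 and 16.5 dpc (1.40 log2), and Fdx1 (2.04 log2), Pgrmc1 (1.83 log2) and Cyb5b (1.78 log2) were higher in the adult. These 6 were the measured part of 8 listed genes, and P450 oxidoreductase was not among them. Fdx1 is the ferredoxin of mitochondrial P450 enzymes and Pgrmc1 a heme-binding partner of microsomal ones. Of the 8 genes of the heme supply list, which also held the heme-degrading Hmox1, 7 rose in the embryo. Ppox (3.38 log2), Fech (3.04 log2) and Alad (2.81 log2) were among them, and the 7 called lower in the adult included all 3. Among all genes tested, 10.4% rose between 10.5 and 16.5 dpc, and 10.3% were higher and 22.8% lower in the adult. Alas1, the rate-limiting enzyme of heme synthesis outside red cells, went from 284 and 290 at 16.5 dpc to 987 and 633 in the adult (1.46 log2, SE 0.18, adjusted p = 3.9e-05). The red cell markers moved with the other 7 genes, from sums of 1683 and 2004 at 10.5 dpc to 21777 and 22115 at 16.5 dpc, and their part was not tested.

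Of 20 regulators tested, 3 rose before birth, namely Ahr (1.10 log2), Cebpa (1.59 log2) and Hnf4a (1.43 log2), and 14 were higher in the adult, with a list median of 1.58 log2 against -0.24 for all genes tested. Among all genes 10.4% rose before birth and 10.3% were higher in the adult, and Nr1i3, Nr0b2 and Onecut1 passed the filter only through their adult arrays. Nr1i3, the nuclear receptor CAR that switches on Cyp2b10, read no more than 23.7 on every embryonic liver array and 642 and 522 in the adult, at least 23.3-fold (4.54 log2, SE 0.15, adjusted p = 1.9e-09). Nr0b2, which represses Cyp7a1, read no more than 12.4 and then 287 and 129.5, at least 7.77-fold. Nr1i2, the receptor PXR of Cyp3a11, was higher in the adult by 1.29 log2 (SE 0.38, adjusted p = 0.014), Nr1h4, the bile acid receptor, by 1.75 log2, and Ghr, the growth hormone receptor, by 2.31 log2. Onecut1, Rxra, Nr1h3, Nr5a2, Tef, Cebpb, Foxa2, Cebpa and Ahr made up the 14.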

How the data were processed

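The authors deposited probe set intensities on a linear scale in 1 table for all 18 arrays. Total RNA was labelled as biotinylated cRNA, per the labels' protocols, and the summary method and scaling between arrays are not given in the sources used here. Groups came from the source names. The adult treatment text describes a partial liver resection, but the adult titles and sources give baseline normal liver.

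The 45037 probe sets exclude controls, and 34945 carried 1 gene symbol. Values were raised to 24.8 and taken to log2. A gene was tested when its probe set exceeded 77.9 on at least 2 arrays of the fit. One fit with 7 group means covered the 14 liver arrays, leaving 7 residual degrees of freedom, and a second fit with stage as a factor covered 12 arrays of both tissues. Both used limma 3.58.1 in R 4.3.3 (lmFit, then two-sided eBayes tests with an intensity trend) with Benjamini-Hochberg adjustment over all genes tested. The liver fit was tested on simulated data, and the fit of both tissues was not. Tables were handled in Python 3.11.15 with pandas 2.3.3, and drawn with matplotlib 3.10.9. Floor, filter, normalization, probe set choice, trend, fit and left-out arrays were varied.

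For each comparison, up to 3 called genes per family and direction are named with values, besides all tested sterol, steroid and vitamin genes, the early embryonic class and genes with discordant probe sets. The members and lists were chosen with earlier results of these data known. The number of arrays and the signal over background limit the precision. Replicate numbers were not used to pair arrays.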

Additional observations from a re-analysis of the deposited data

How the results depend on the processing

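Of 83 called gene differences, 61 kept direction and call under each alternative that could test them, 22 lost the call under at least 1, and none reversed, over 35 alternatives. Between 10.5 and 16.5 dpc, raising the floor to the 40th percentile left 6 genes higher and 0 lower, and leaving out the 10.5 and 12.5 dpc arrays left 0 lower. That last setting left 5 genes changed over the stages. Between 13.5 and 16.5 dpc the 1 higher gene became 0 with the floor at the 10th percentile, no filter, median centring, every probe set by itself, all 18 arrays in 1 fit or the replicate block, and 2 with the floor at the 40th percentile, the filter at the 60th, quantile normalization, the mean over probe sets or no trend. Leaving out 1 array gave 0 to 2 there. The 1 gene lower in the adult became 0 without a filter and with quantile normalization, and 0 to 1 with 1 array left out. Genes higher in the adult numbered 17 to 39 with 1 array left out. Genes higher in liver than in the rest of the embryo numbered 14 with median centring and 14 with quantile normalization. The early embryonic class held 13 genes with the line at the 60th percentile and 8 at the 70th. With the replicate block the other counts were 10 higher and 1 lower between 10.5 and 16.5 dpc, 10 changed over the stages, and 39 higher and 1 lower in the adult. Deviations of same-numbered arrays correlated between -0.338 and 0.241 over 21 pairs of groups, 4 of them above 0.1, so the numbers do not pair the arrays. The cause of these shifts was not tested, apart from the smaller number of genes tested when an adult array was left out. Signal near the floor limits every gene given as a bound.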

Other observations

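P450 probe sets outside the symbol rule gave further values. A probe set shared by Cyp3a41a and Cyp3a41b read no more than 9.08 up to 13.5 dpc, 64.4 and 58.2 at 14.5 dpc, then 57.5 and 61.6 at 16.5 dpc, against 2645 and 5552 in the adult. Its step fell at the same stage as that of Cyp3a11, and the probe set was not tested. A probe set shared by Cyp2a4 and Cyp2a5, the steroid 15-hydroxylase and coumarin hydroxylase, read no more than 27.3 in embryonic liver and 1973 and 3464 in the adult. A probe set shared by Cyp4a10 and Cyp4a31 read no more than 27.8 in embryonic liver and 1747 and 2898 in the adult, whereas the representative probe set of Cyp4a31 alone read 117 to 243 and then 318 and 302.

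Cyp4a12a, a fatty acid hydroxylase that is higher in males, read 90.9 and 83.1 at 14.5 dpc, then 68.1 and 59.8 at 16.5 dpc, with 38.1 and 228 in the adult females, and was not called in any comparison. Cyp51, the sterol 14-demethylase of cholesterol synthesis, was 573 and 513 at 16.5 dpc and 646 and 467 in the adult (0.02 log2, SE 0.16, adjusted p = 0.94). Ptgis, the prostacyclin synthase of vessels and mesenchyme, fell between 10.5 and 16.5 dpc (-1.19 log2, SE 0.22, adjusted p = 0.0018).

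The adult arrays differed in the P450 genes. Of 48 genes with both adult arrays above the line, 30 were higher on replicate 2 and 18 on replicate 1, with a median of 0.31 log2 for replicate 2 over replicate 1 against -0.07 for all probe sets above the line. Cyp3a25 differed most towards replicate 2, with 1252 and 3758, and Cyp7a1 most towards replicate 1, with 626 and 264. In family 2 18 of 24 genes were higher on replicate 2, while Cyp7a1 and Cyp7b1, 2 of the 4 sterol genes, were higher on replicate 1.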
